A study of Mus musculus with 6 samples.

Results

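The genes described here are 10 members of the FGF, HGF and PDGF growth factor systems in tumour stroma fibroblasts, known as cancer-associated fibroblasts or CAFs, after siRNA against Stat3. They were taken by symbol from the deposited count table. All 10 were among its 24015 gene symbols, and all 10 passed the filter on low counts, which left 13284 genes. They are the ligands Hgf, Fgf2, Fgf7, Fgf10, Pdgfa, Pdgfb and Pdgfc and the receptors Fgfr1, Pdgfra and Pdgfrb. Of the groups, 3 samples received nanoparticles with anti-Stat3 siRNA and 3 received nanoparticles with control siRNA, both at 1 ug/mL for 72 hours. Every sample came from primary CAFs isolated from the breast tumours of mice with the NeuT transgene, an activated rat Her2/neu gene, and of BalbC background. The sources used here do not give the promoter of the transgene, the age of the mice or whether samples came from separate animals or cultures. The p-values therefore cover the spread among these 6 samples, and how much of it is technical is not known.

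Growth factors of these families are secreted or shed into the matrix and bind receptor tyrosine kinases on the same or on neighbouring cells. HGF, FGF7 and FGF10 are classic mesenchymal signals to epithelium: HGF acts through the receptor MET, and FGF7 and FGF10 act mainly through the epithelial form of FGFR2. FGF2 acts on FGFR1 with heparan sulphate as a cofactor. PDGF ligands pair into dimers that drive growth and migration of mesenchymal cells through PDGFRA, a usual surface marker of fibroblasts, and PDGFRB, which pericytes carry as well. Signalling from all these receptors runs through adaptor proteins to RAS and ERK, which in turn induce inhibitors such as the Sprouty proteins.

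Expression was measured by sequencing of poly(A) RNA, with total counts of 12998168 to 16043022 per anti-Stat3 sample and 14676958 to 18683852 per control sample. Levels are CPM, counts relative to the library total, scaled by TMM, a method that makes libraries comparable. Samples of the same number are called a pair, since they deviated together from their group means. A positive log2 change means a higher level with anti-Stat3 siRNA. Stat3 had 34.7, 81.9 and 78.9 CPM with anti-Stat3 siRNA, against 220, 359 and 405 CPM with control siRNA. With the pair as a block, edgeR gave a Stat3 change of -2.38 (adjusted p = 0.0027), and it missed the threshold with treatment alone (adjusted p = 1.00) or without pair 3 in blocked edgeR (adjusted p = 0.265). All 10 fibroblast markers examined were tested, with a summed level of 25591 to 52475 CPM with anti-Stat3 siRNA and 21789 to 68251 CPM with control siRNA. Most of each sum came from the collagen genes Col1a1, Col1a2 and Col3a1. Macrophage markers summed to 41.1 CPM in pair 1 with anti-Stat3 siRNA and 46.3 CPM with control siRNA. In pairs 2 and 3 they summed to 1578 and 2617 CPM with anti-Stat3 siRNA and 1675 and 2267 CPM with control siRNA. None of the 13 macrophage markers was at 0 in every sample. Fewer cells of a type and less RNA per cell cannot be told apart in such bulk samples.

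Receptor transcripts and Fgf7 were the most abundant of the 10 genes and Pdgfb the least. To compare genes, CPM were divided by the kb of exon sequence of each gene in the GENCODE M21 annotation. Over the 6 samples the mean level was 143 ± 31.5 CPM per kb for Pdgfrb, 98.6 ± 26.3 for Fgf7, 60.2 ± 26.1 for Pdgfra and 46.7 ± 2.14 for Fgfr1 (SD, n = 6). Fgf10 followed with 23.0 ± 5.26 CPM per kb, and its range overlapped neither that of Fgfr1 above it nor that of Pdgfc below it. Pdgfc had a mean of 11.04 ± 1.99, Hgf 10.1 ± 1.95, Pdgfa 7.17 ± 2.16, Fgf2 3.02 ± 1.20 and Pdgfb 1.16 ± 0.898 CPM per kb. All other neighbours in this order had overlapping ranges, so their order is not fixed beyond the spread. Fgf7 was nevertheless above Pdgfra in each of the 6 samples, and Hgf above Pdgfa. These lengths join all annotated exons, which lowers the value of genes with several isoforms.

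**Figure D1:**
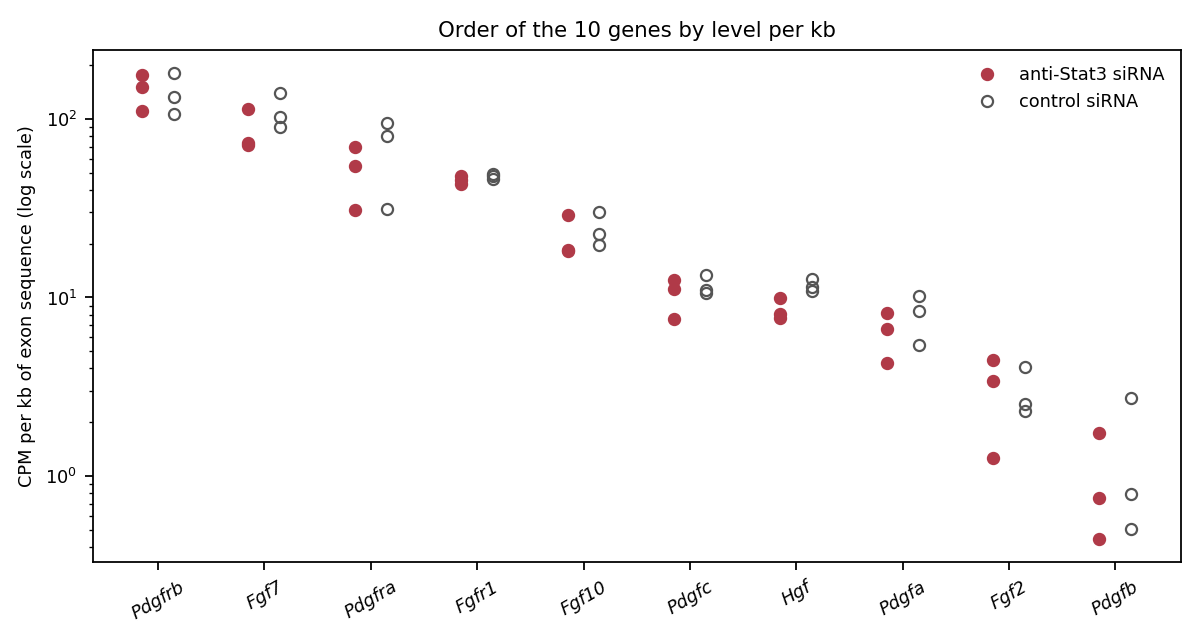
Level of each gene in CPM per kb of exon sequence (log scale), with filled points for the 3 anti-Stat3 siRNA samples and open points for the 3 control siRNA samples. The genes run from Pdgfrb, with a mean of 143 CPM per kb over the 6 samples, to Pdgfb with 1.16, and Fgf10 is set apart from both of its neighbours.

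Fgfr2, Fgfr3, Fgfr4 and Met were low, and Fgfrl1 was not. Fgfr2, the receptor of FGF7 and FGF10, had a mean of 1.38 CPM per kb with anti-Stat3 siRNA and 1.12 with control siRNA, and Fgfr3 had 0.12 with anti-Stat3 siRNA and 0.16 with control siRNA. Fgfr4 had at most 5 counts in a sample and did not enter the tests. Fgfrl1, an FGF-binding receptor without a kinase domain, had 14.5 CPM per kb with anti-Stat3 siRNA and 13.7 with control siRNA. Met, the HGF receptor, had 2.39 CPM per kb with anti-Stat3 siRNA and 2.28 with control siRNA. Of the 22 mouse FGF genes, here listed as FGF ligands, only 10 passed the filter on low counts. The list includes intracellular FGFs such as Fgf11. Fgf3 and Fgf4 had no count in any sample, where 3 counts correspond to between 0.159 and 0.23 CPM.

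Hgf was the member that separated the groups. Hgf encodes hepatocyte growth factor, a fibroblast product that makes epithelial cells scatter and invade. Its level was 71.2, 58.0 and 55.2 CPM in anti-Stat3 samples 1 to 3, against 78.3, 82.2 and 91.0 CPM in control samples 1 to 3. All anti-Stat3 samples were below all controls, and the distance was small in pair 1. The means were 61.5 ± 8.54 CPM with anti-Stat3 siRNA and 83.9 ± 6.50 CPM with control siRNA (SD, n = 3 each). Anti-Stat3 samples of pairs 1 to 3 held 90.9%, 70.6% and 60.8% of the level of their control. In edgeR, fitted with treatment as its single term, the Hgf change was -0.45 ± 0.16 (SE; unadjusted p = 0.027). Adjusted over all genes this p was 1.00, so Hgf missed the threshold. Blocking on the pair gave -0.45 ± 0.13 and an adjusted p of 0.25, with a 95% interval from -0.76 to -0.14 that is not adjusted for the number of genes. Without pair 1 the blocked edgeR test gave -0.61 and an adjusted p of 0.0399, which passes, while blocked DESeq2 gave an adjusted p of 0.107. Without pair 1, blocked edgeR called 1 member and 5.2% of all genes tested, 703 in number, and blocked DESeq2 0 members and 3.19%. Without pair 2 or pair 3, Hgf had adjusted p-values of 0.572 and 1.00 in blocked edgeR. Those fits called 0 members, against 0.0225% of all genes without pair 2 and 0% without pair 3 in blocked edgeR, and 0.105% and 0.147% in blocked DESeq2.

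Groups that did not overlap were found for 1 of the 10 members, lower with anti-Stat3 siRNA, and for 2.23% of all tested genes in that direction. Higher groups without overlap were found for 0 members and 2.45% of all tested genes. With 3 samples against 3, an exact permutation test of a single gene cannot give a two-sided p below 0.1, and with 3 pairs not below 0.25.

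**Figure D2:**
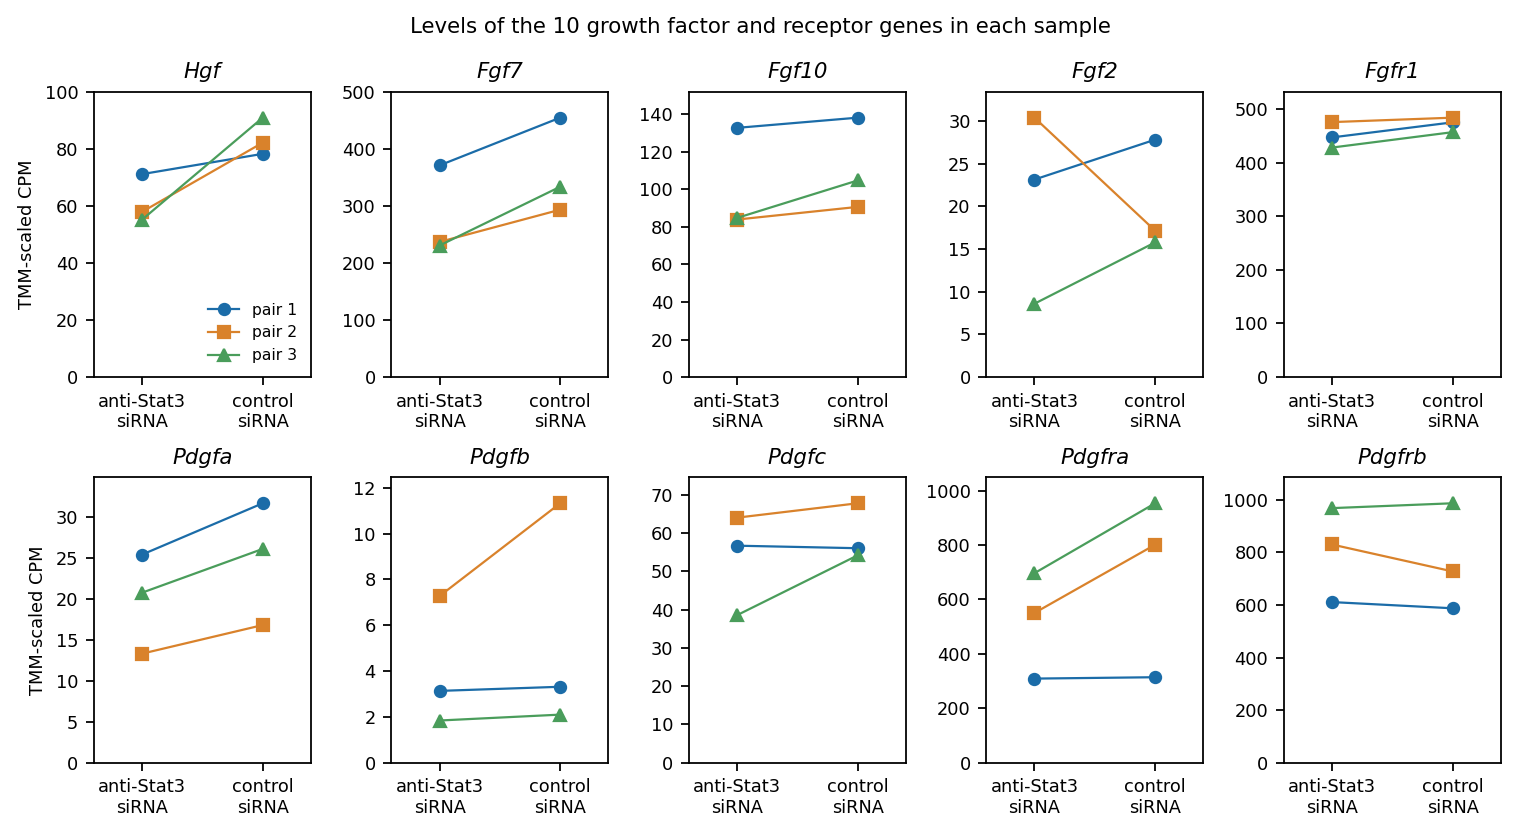
TMM-scaled CPM of each gene in the anti-Stat3 siRNA sample and the control siRNA sample of each pair, on axes that start at 0, with a line for each of pairs 1 to 3. Hgf is the gene whose anti-Stat3 points, 55.2 to 71.2 CPM, all lie below its control points, 78.3 to 91.0 CPM, and the Fgf2 line of pair 2 slopes against those of pairs 1 and 3.

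Both FGF ligands that act on epithelium, Fgf7 and Fgf10, were lower with anti-Stat3 siRNA in each pair, and neither passed. Fgf7 encodes keratinocyte growth factor. It had 371, 237 and 231 CPM with anti-Stat3 siRNA, against 455, 294 and 334 CPM with control siRNA. Both samples of pair 1 were high, and the groups overlapped. The log2 changes of Fgf7 were -0.29, -0.31 and -0.53 in pairs 1 to 3, and anti-Stat3 samples held 81.6%, 80.7% and 69.1% of their controls. Blocked edgeR gave -0.38 ± 0.12 (SE, unadjusted p = 0.013, adjusted p = 0.27).

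Fgf10, which is needed for the outgrowth of the mammary bud and of other epithelial buds in mice, had 133, 83.9 and 84.8 CPM with anti-Stat3 siRNA, against 138, 90.7 and 105 CPM with control siRNA. Its 3 changes were smaller, at -0.06, -0.11 and -0.30, and blocked edgeR gave -0.16 ± 0.10 (SE, adjusted p = 0.63). Pair 1 was again the highest in both groups. Without control sample 1 the change in edgeR with the group alone was 0.04, a change of sign in a fit that breaks a pair.

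The upstream sequences of Hgf, Fgf7 and Fgf10, the epithelium-directed ligands that were lower in each pair, are shown because the study lowers a DNA-binding factor. Each line gives the 250 bases before a start of transcription in RefSeq, build GRCm38.p6, on the plus strand of the genome. The positions are chr5:16553245-16553494 for Hgf, chr2:126034408-126034657 for Fgf7 and chr13:118714449-118714698 for Fgf10. Hgf had a second RefSeq window, at chr5:16553651-16553900, which is not printed. These positions were not converted to the build of the counts. Capitals mark GGGCGG, the GC box bound by SP1, on either strand.
Hgf: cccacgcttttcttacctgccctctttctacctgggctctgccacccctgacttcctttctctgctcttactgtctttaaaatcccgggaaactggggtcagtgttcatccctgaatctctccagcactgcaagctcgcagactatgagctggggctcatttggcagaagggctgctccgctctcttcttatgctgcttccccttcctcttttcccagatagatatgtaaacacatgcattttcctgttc
Fgf7: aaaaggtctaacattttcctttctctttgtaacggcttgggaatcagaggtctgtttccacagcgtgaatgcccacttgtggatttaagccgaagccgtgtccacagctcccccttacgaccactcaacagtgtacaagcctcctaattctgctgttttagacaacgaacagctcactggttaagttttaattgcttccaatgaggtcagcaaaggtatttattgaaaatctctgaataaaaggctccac
Fgf10: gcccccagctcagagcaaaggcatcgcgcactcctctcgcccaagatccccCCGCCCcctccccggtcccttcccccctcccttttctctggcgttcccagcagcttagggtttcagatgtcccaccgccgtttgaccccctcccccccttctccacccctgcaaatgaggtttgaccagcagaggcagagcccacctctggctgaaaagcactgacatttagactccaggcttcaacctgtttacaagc
The motif TTCNNNGAA, the palindrome that STAT dimers bind and which reads the same on both strands, was in none of these 3 windows. RefSeq windows were at hand for 7 of the 10 members, 9 windows in all, and 0 of the 9 held it, against 7.02% of all 32851 windows of this length. A window of 250 bases leaves out more distant sites. GGGCGG was in 4 of the 9 windows, of Fgf2, Fgf10 and Pdgfa, and in 32.7% of all windows. TATAAA, the TATA box, was in 0 of the 9 and in 12.4% of all windows, searched on both strands. With the other motifs absent, no GGGCGG match in these windows overlapped one of them. The Fgf7 window held 43.6% G and C, and the windows of Pdgfa held 66.4% and 72.4%, where the median of all windows was 52.4%.

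Fgf2 went in opposite directions in different pairs. Fgf2 encodes basic fibroblast growth factor, which lacks a signal peptide and binds heparan sulphate in the matrix. It had 23.1, 30.4 and 8.59 CPM with anti-Stat3 siRNA, against 27.8, 17.1 and 15.8 CPM with control siRNA. Relative to its control, the anti-Stat3 sample was higher in pair 2 and lower in pairs 1 and 3, with log2 changes of -0.26, 0.82 and -0.87. The edgeR test with the group alone gave 0.03 ± 0.47 (SE, adjusted p = 1.00), and blocked edgeR gave -0.07 with a 95% interval from -0.73 to 0.60. A change of 1.5-fold either way lies within that interval. In the GENCODE annotation, exons of Nudt6, a nudix hydrolase gene on the opposite strand, share 640 bases with those of Fgf2. Nudt6 had 39.6, 54.2 and 20.6 CPM with anti-Stat3 siRNA, against 48.6, 33.2 and 23.2 CPM with control siRNA, so its pair changes were -0.30, 0.70 and -0.17. The sources used here do not say whether the counting used strand, so reads of the shared bases cannot be assigned, and their part in the Fgf2 values was not tested. Such opposite-strand overlaps were annotated for 6 members, and the partner had a row in the count table for Fgf2 alone. Exons on the same strand overlapped those of Hgf (Gm43489, 484 bases), Fgf2 (Gm43439, 255 bases) and Pdgfra (Mir7025, 30 bases). The part of these overlaps in the values was not tested.

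Fgfr1 had the smallest spread of the 10 genes over the 6 samples, relative to its level. This receptor for FGF2 and other FGFs had 447, 476 and 428 CPM with anti-Stat3 siRNA, against 475, 484 and 457 CPM with control siRNA. The log2 changes of -0.09, -0.02 and -0.09 were all below 0 and small. Blocked edgeR gave -0.07 ± 0.11 (SE, adjusted p = 0.86) with a 95% interval from -0.33 to 0.19.

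The PDGF ligands Pdgfa, Pdgfb and Pdgfc were lower or nearly level with anti-Stat3 siRNA, and none of these 3 passed. Pdgfa encodes the A chain, whose homodimer binds PDGFRA. It had 25.5, 13.3 and 20.8 CPM with anti-Stat3 siRNA, against 31.7, 16.8 and 26.1 CPM with control siRNA. Between pairs the level differed up to 1.90-fold, while the change was almost the same in each, at -0.32, -0.33 and -0.33. Anti-Stat3 samples thus held 80.3%, 79.4% and 79.6% of their controls. Blocked edgeR gave -0.33 ± 0.11 (SE, unadjusted p = 0.018, adjusted p = 0.31).

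Pdgfb, the B chain, which binds both receptors and is best known from endothelial cells and platelets, was low. It had 3.13, 7.27 and 1.84 CPM with anti-Stat3 siRNA, against 3.31, 11.3 and 2.10 CPM with control siRNA. Pair 2 was highest in both groups, 4.72-fold above the lowest pair, and it also had the largest change, at -0.63 against -0.08 and -0.18. The 10 epithelial markers were also highest in pair 2, with summed levels of 141, 418 and 46.1 CPM with anti-Stat3 siRNA and 142, 415 and 44.5 CPM with control siRNA. Endothelial markers summed to 9.90, 39.9 and 26.9 CPM with anti-Stat3 siRNA and 10.5, 27.8 and 21.5 CPM with control siRNA, and Pecam1 had at most 9 counts in a sample. Megakaryocyte or platelet markers were highest in pair 1, with sums of 17.6, 9.29 and 9.21 CPM with anti-Stat3 siRNA and 16.1, 11.1 and 10.8 CPM with control siRNA. Macrophage markers, given above, were highest in pair 3. The part of these cells in the Pdgfb level was not tested. Blocked edgeR gave -0.35 ± 0.21 (SE, adjusted p = 0.59). Without control sample 2 the change in edgeR with the group alone was 0.60.

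Pdgfc encodes a PDGFRA ligand that is secreted with an inhibitory domain and freed by proteases. It had 56.7, 64.0 and 38.5 CPM with anti-Stat3 siRNA, against 56.0, 67.7 and 54.1 CPM with control siRNA. Pair 3 held most of the difference, with log2 changes of 0.02, -0.08 and -0.49. Blocked edgeR gave -0.18 ± 0.13 (SE, adjusted p = 0.66). Pdgfd, the fourth PDGF ligand and no member, was higher in each pair, at 35.4, 48.9 and 26.6 CPM with anti-Stat3 siRNA against 31.4, 29.5 and 23.2 CPM with control siRNA, and did not pass (blocked edgeR adjusted p = 0.40).

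Of the PDGF receptors, Pdgfra was lower with anti-Stat3 siRNA in pairs 2 and 3, Pdgfrb was nearly level or higher, and neither passed. Pdgfra had 309, 550 and 696 CPM with anti-Stat3 siRNA, against 314, 801 and 953 CPM with control siRNA. In pair 1 it was low and nearly level between the groups, and in pairs 2 and 3 the anti-Stat3 samples held 68.7% and 73.1% of their controls. The log2 changes were -0.02, -0.54 and -0.45, and blocked edgeR gave -0.34 ± 0.14 (SE, unadjusted p = 0.046, adjusted p = 0.45). Pdgfrb had 611, 830 and 968 CPM with anti-Stat3 siRNA, against 587, 727 and 987 CPM with control siRNA. Its changes were 0.06, 0.19 and -0.03, and blocked edgeR gave 0.07 ± 0.12 (SE, adjusted p = 0.86) with a 95% interval from -0.21 to 0.35. The difference between the changes of both receptors was not tested.

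Of the 10 fibroblast markers, which include Pdgfra, 8 were lower in pair 2, 5 in pair 3 and 3 in pair 1, with pair medians of 0.09, -0.34 and -0.08 in pairs 1 to 3. Pdgfra was lowest in pair 1, where the summed fibroblast and macrophage markers were lowest too. Most of the fibroblast sums came from collagen genes. In anti-Stat3 sample 1, Col1a1 had 9177, Col1a2 8688 and Col3a1 3465 CPM of a sum of 25591 CPM. The fibroblast sums therefore do not show how the other fibroblast markers ran over the pairs. The part of fibroblasts and macrophages in the Pdgfra values was not tested. Pericyte markers, a list that holds Pdgfrb, summed to 813, 984 and 1060 CPM with anti-Stat3 siRNA and 747, 864 and 1059 CPM with control siRNA. Pdgfrb alone made up 611, 830 and 968 CPM of these sums with anti-Stat3 siRNA and 587, 727 and 987 CPM with control siRNA. The sums therefore mostly repeat Pdgfrb and do not show how the other pericyte markers ran over the pairs. Of the 6 tested pericyte markers 1 rose in blocked DESeq2, where 0.873% of all tested genes rose, and 2 were higher in all pairs, 0 lower in all pairs and 4 mixed. It was Mcam, by 0.60 ± 0.17 (SE, adjusted p = 0.026), at 149, 29.2 and 34.4 CPM with anti-Stat3 siRNA against 119, 17.8 and 20.1 CPM with control siRNA. It did not pass in blocked edgeR (adjusted p = 0.17). Abcc9, another pericyte marker, had log2 differences of 0.20, -0.52 and -1.34 in pairs 1 to 3 and did not pass (blocked edgeR adjusted p = 0.61). The pericyte genes Rgs5 and Kcnj8 were too low to be tested, with at most 41 and 20 counts in a sample.

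**Figure D3:**
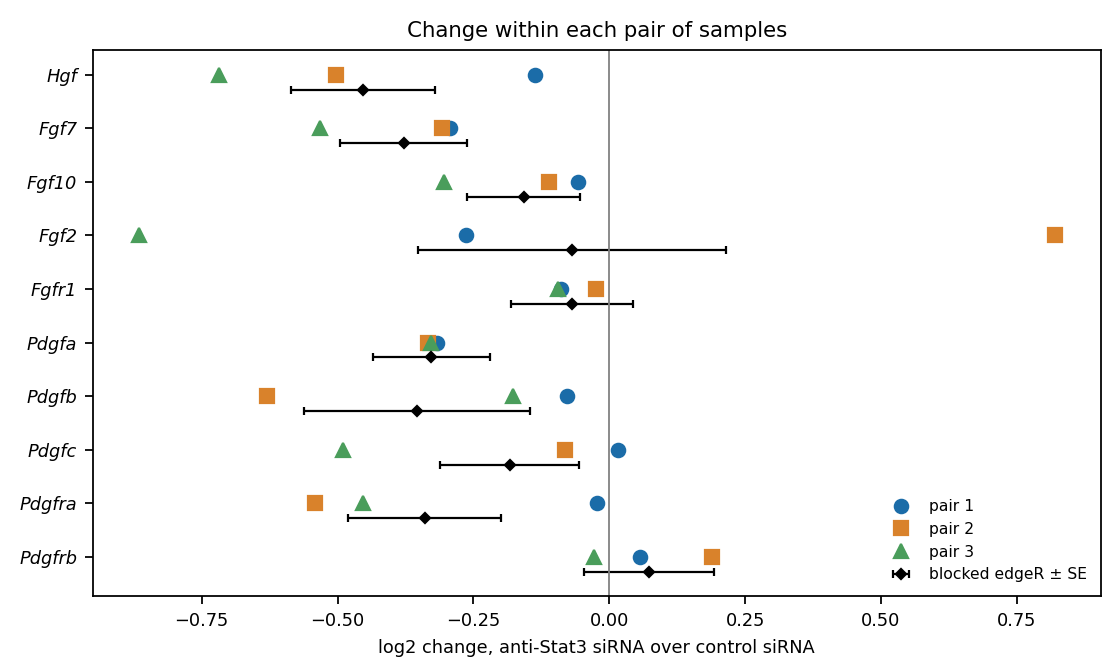
Log2 change of each gene, anti-Stat3 siRNA over control siRNA, within pair 1 (circles), pair 2 (squares) and pair 3 (triangles), with the blocked edgeR estimate and its SE below each row as a black diamond. Pdgfa shows 3 nearly equal changes of -0.32 to -0.33, while Fgf2 runs from -0.87 to 0.82.

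Across the 10 genes no change passed an adjusted p of 0.05 in any fit of all 6 samples. In edgeR with the group alone, 0 members and 0 of the 13284 genes were called, which is 0% of the genes tested. The errors of that fit include the differences between pairs, and its estimates were -0.37 ± 0.27 for Fgf7, -0.33 ± 0.33 for Pdgfa and -0.41 ± 0.48 for Pdgfra (log2 change ± SE). At an unadjusted p under 0.05 it held 1 member, Hgf, and 1.77% of all genes. With the pair as a block, edgeR called 0 members and 0.0602% of all genes, limma-voom likewise 0 members and 0.0602%, and DESeq2 0 members and 1.66%. DESeq2 with the group alone called 0 members and 0.128% of all genes, and limma-voom with the group alone called 0 members and 0%. At an unadjusted p under 0.05 in blocked edgeR, 4 members were lower (Hgf, Fgf7, Pdgfa and Pdgfra) and 0 higher, where 5.2% of all genes were lower and 5.63% higher. In 7 members all 3 pairs were lower, in 0 all were higher and in 3 the pairs were mixed. Over all tested genes 16.4% were lower in all 3 pairs and 17.3% higher. The median log2 change of the members was -0.24 with the group alone and -0.08, -0.21 and -0.39 in pairs 1 to 3, where those of all genes lay between -0.0028 and 0.012. The members were chosen with earlier results of these data known, so these counts describe the 10 genes and carry no test.

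Many genes of the whole data set, members among them, differed in level between the pairs. A test of the pair term in blocked edgeR called 6 of the 10 members, where it called 41.5% of all genes. They were Pdgfb (adjusted p = 0.0013), Pdgfra (0.0026), Pdgfa (0.0045), Fgf10 (0.013), Fgf7 (0.018) and Pdgfrb (0.021). Fgf7, Fgf10 and Pdgfa were highest in pair 1, Pdgfra and Pdgfrb were lowest there, and Pdgfb was highest in pair 2. Fgf2 and Pdgfc did not pass (adjusted p = 0.078 and 0.073). Hgf and Fgfr1 had the most even levels, with pair means that differed at most 1.07-fold and 1.08-fold (adjusted p = 0.79 and 0.74).

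Around the members, a few regulators of these receptors passed in tests with the pair as a block, and no adaptor did. Those tests called 0.0602% of all genes in edgeR and in limma-voom, and 1.66% in DESeq2. Of 14 tested FGF receptors and co-receptors, 1 fell and 1 rose in blocked DESeq2, where 0.783% of all tested genes fell and 0.873% rose. Sdc4, a heparan sulphate proteoglycan that binds FGFs, had 146, 107 and 99.0 CPM with anti-Stat3 siRNA, against 186, 152 and 154 CPM with control siRNA. The groups did not overlap, and Sdc4 fell by 0.49 ± 0.14 on the log2 scale in blocked DESeq2 (SE, adjusted p = 0.028) but did not pass in blocked edgeR (adjusted p = 0.17). Sdc3, another syndecan, rose in blocked DESeq2 by 0.53 ± 0.16 (SE, adjusted p = 0.047), at 540, 262 and 386 CPM with anti-Stat3 siRNA against 469, 155 and 253 CPM with control siRNA. In blocked edgeR it did not pass with all pairs (adjusted p = 0.21) and passed without pair 1 (0.68, adjusted p = 0.0201). Without pair 1, blocked edgeR called 5.2% of all tested genes and blocked DESeq2 3.19%. In blocked DESeq2, Sdc4 was no longer called when any one pair was left out (adjusted p = 0.109, 1.00 and 1.00 without pairs 1 to 3), while Sdc3 was called without pair 1 (adjusted p = 0.0108) and not without pair 2 or pair 3 (adjusted p = 1.00 for both). Flrt2, a membrane protein of a family that interacts with FGF receptors, had groups that did not overlap, at 76.0, 102 and 75.2 CPM with anti-Stat3 siRNA against 62.7, 61.4 and 63.0 CPM with control siRNA, and did not pass in blocked DESeq2 (adjusted p = 0.23). Gpc1, a glypican that binds FGFs, had log2 differences of 0.05, -0.84 and -0.50 in pairs 1 to 3 and did not pass with all pairs (blocked DESeq2 adjusted p = 0.38). Without pair 1 it passed in blocked edgeR (-0.67, adjusted p = 0.0267) and in blocked DESeq2 (adjusted p = 0.0294), fits that called 5.2% and 3.19% of all tested genes. The median of this list was 0.031 with the group alone and 0.011 in blocked edgeR.

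Of 19 tested feedback inhibitors and target genes of these receptors, 1 rose and 1 fell in blocked DESeq2, where 0.873% of all tested genes rose and 0.783% fell. The rise alone passed in blocked edgeR, which called 0.0602% of all genes. The gene that rose was Spry1, the Sprouty inhibitor named above, at 49.8, 110 and 94.9 CPM with anti-Stat3 siRNA against 26.8, 51.8 and 44.3 CPM with control siRNA. It was higher in each pair, though anti-Stat3 sample 1 lay below control sample 2. Its log2 change was 1.03 ± 0.11 in blocked edgeR (SE, adjusted p = 0.039). Blocked edgeR no longer called it when pair 2 or pair 3 was left out (adjusted p = 0.261 and 0.653), while blocked DESeq2 called it without any one pair, with adjusted p-values up to 0.0255. Those DESeq2 fits, without pairs 1 to 3 in turn, called 3.19%, 0.105% and 0.147% of all tested genes. Ier3, an immediate early gene, fell by 0.60 ± 0.14 on the log2 scale in blocked DESeq2 (SE, adjusted p = 0.0037), at 177, 69.2 and 39.1 CPM with anti-Stat3 siRNA against 297, 93.9 and 59.8 CPM with control siRNA. It did not pass in blocked edgeR (adjusted p = 0.16), nor in blocked DESeq2 without pairs 1 to 3 in turn (adjusted p = 0.283, 0.284 and 0.587). Spred3, a relative of the Sprouty proteins, had 24.4, 24.7 and 20.6 CPM with anti-Stat3 siRNA, against 30.6, 35.0 and 28.1 CPM with control siRNA. Its groups did not overlap, and it did not pass (blocked edgeR adjusted p = 0.20). Il17rd, a membrane inhibitor of FGF signalling, and Fos, an immediate early transcription factor, did not pass with all pairs (blocked edgeR adjusted p = 0.40 and 0.17). Without pair 1, Il17rd passed in blocked edgeR (0.82, adjusted p = 0.0184) and not in blocked DESeq2 (adjusted p = 0.151). These fits without pair 1 called 5.2% and 3.19% of all tested genes. In pair 1, 18 of the 19 genes were lower, against 5 in pair 2 and 8 in pair 3, and the pair medians were -0.35, 0.12 and 0.10. The exception in pair 1 was Spry1. Over all genes the pair medians were 0.0011, -7.9e-06 and 0.012. Dusp4, Dusp5, Dusp6, Etv1, Etv4 and Etv5 of this list were each lower in pair 1. Their changes in blocked edgeR were 0.15, -0.44, -0.0061, -0.22, 0.44 and 0.14, and none passed (adjusted p from 0.575 to 0.99). Egr1, an immediate early transcription factor, had 148, 74.4 and 35.2 CPM with anti-Stat3 siRNA against 226, 58.0 and 24.3 CPM with control siRNA, so that pair 1 went against the others.

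The remaining lists held no called gene in any fit of all 6 samples, where these fits called 0% to 1.66% of all genes. Of 25 adaptors and effectors, such as Frs2, Grb2 and Map2k1, 6 were lower and 4 higher in all pairs. Of all tested genes 16.4% were lower and 17.3% higher in all pairs. The median of the adaptors and effectors was -0.024 with the group alone and -0.01 in blocked edgeR. Braf, a kinase upstream of ERK, was the only adaptor or effector at an unadjusted p under 0.05 in blocked edgeR, at -0.37 ± 0.14 (SE, adjusted p = 0.40). At that threshold 5.2% of all genes were lower and 5.63% higher. The HGF axis had 8 of 10 genes tested and a median of -0.17 with the group alone, against -0.072 in blocked edgeR and -0.058 in blocked DESeq2. Met had log2 differences of -0.05, 0.11 and 0.16 in pairs 1 to 3, and Mst1r, a receptor related to MET, had 0.08, -0.65 and -0.39. The PDGF axis had all 8 genes tested and a median of -0.23 with the group alone. Most of this list is the PDGF ligands and receptors already described as members, beside Pdgfd, Pdgfrl and Plat. Its pair medians were 0.035, -0.21 and -0.25, with 3 genes lower in all pairs, 2 higher and 3 mixed. In this list Pdgfrl, a PDGF receptor-like protein, was higher in each pair, at 116, 86.7 and 146 CPM with anti-Stat3 siRNA against 99.2, 77.4 and 104 CPM with control siRNA (blocked edgeR adjusted p = 0.38). Among FGF ligands the median was 0.0071 with the group alone, and below 0 in blocked edgeR (-0.034) and blocked DESeq2 (-0.051). Fgf11, an intracellular FGF, had 1.07, 1.01 and 1.38 CPM with anti-Stat3 siRNA against 1.15, 5.24 and 3.42 CPM with control siRNA. Fgf11 did not pass with all pairs (blocked edgeR adjusted p = 0.25). Without pair 1 it passed in blocked edgeR (adjusted p = 0.0052) and not in blocked DESeq2 (adjusted p = 0.086). Those fits without pair 1 called 5.2% and 3.19% of all tested genes.

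**Figure D4:**
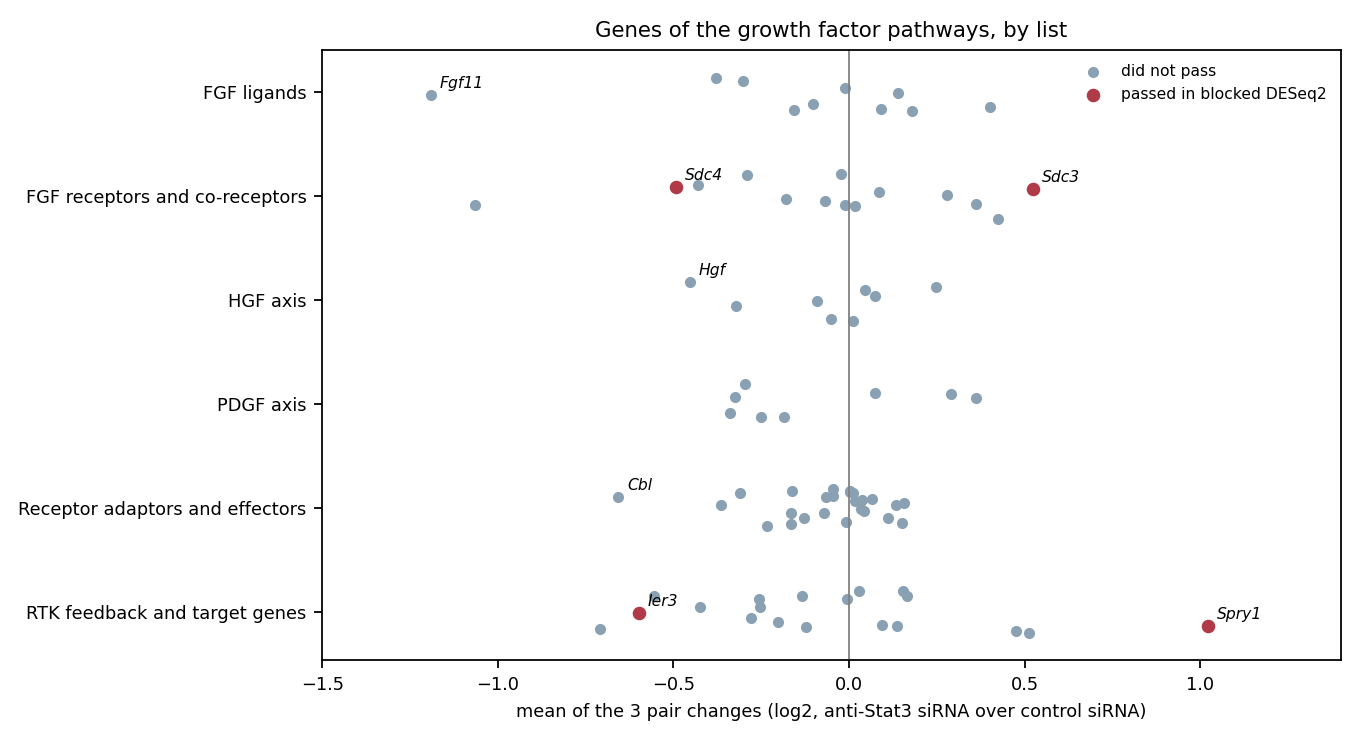
Mean of the 3 pair changes (log2, anti-Stat3 siRNA over control siRNA) of each tested gene, in a row for each list, with a random vertical offset. Red points passed in blocked DESeq2: Spry1 at 1.02 and Sdc3 at 0.52 (higher), Sdc4 at -0.49 and Ier3 at -0.60 (lower), and none of the 10 members is among them.

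The genes whose log2 CPM over the 6 samples was most like that of a member were found by Pearson's r, as a description over samples that share pairs. For Hgf they were Slc7a6, H6pd and C430002N11Rik (r = 0.987, 0.982 and 0.979, n = 6). H6pd, an enzyme of the endoplasmic reticulum that makes NADPH, had 241, 194 and 194 CPM with anti-Stat3 siRNA against 305, 331 and 351 CPM with control siRNA. For Fgf7 they were Pbx3, Celsr3 and Kctd9 (r = 0.997, 0.994 and 0.990), and those for Pdgfra included Crtc3 and Narf (r = 0.997 and 0.996).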

How the data were processed

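Poly(A) RNA of 6 samples of primary CAFs was sequenced from TruSeq libraries, per the labels' protocols. The authors deposited raw counts per gene symbol, made with TopHat2 2.0.10 and HTSeq on build mm9, per the submitters' processing notes. Columns say "sh" where titles say "si", and were matched by group and number; 0 columns of samples were unused. Counts were tested in R 4.3.3 with edgeR 4.0.16 (quasi-likelihood F test, TMM, filterByExpr at its minimum count, 10, and total, 15, group as the only term, Benjamini-Hochberg threshold 0.05 over 13284 genes). SE was the log2 change over the square root of F. Pair changes used log2 CPM, prior count 2. Alternatives were DESeq2 1.42.0, voom from limma 3.58.1, other scalings, no filter and left-out samples. The edgeR, DESeq2 and limma-voom fits of all 6 samples, with and without the block, were run on simulated data with the same dispersion for every gene. That check set limits on the error of the log2 change and, with the block, on recovery of large changes. It set none on false calls. Other scalings, the fit without filter, fits with left-out samples and the test of the pair term were not run on simulated data.

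Across genes, deviations from the group mean had r = 0.834, 0.818 and 0.831 for same-numbered samples, while other combinations had r of -0.163 at most, so the numbers from the titles were taken to pair the samples. The sources used here do not say what a number shares. No samples were near-identical. The samples of pair 1 were the most alike, with a chi-square per degree of freedom over genes of 15.4, where lower is more alike. It was 56.7 in pair 2 and 60.7 in pair 3. With 3 counts as its limit, a count of 0 allows up to 0.23 CPM in the smallest library, for counting error only. Promoters and exon lengths came from GRCm38 and were not joined to coordinates of the counts. The rule for named genes took Stat3, the members, up to 4 genes of each of 6 lists with the smallest p in edgeR with and without the block, and the 3 genes most like Hgf, Fgf7 and Pdgfra, of which 1 is not reported here. Partners, marker genes, Nudt6, Egr1, Grb2, Map2k1, Dusp4, Dusp5, Dusp6, Etv1, Etv4 and Etv5 were named outside it, after their values were seen. The members and lists were chosen with earlier results of these data known.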

Additional observations from a re-analysis of the deposited data

How the results depend on the processing

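No member passed with all 6 samples under any scaling, filter or tool. Fits with the replicate block changed the number of genes called among all tested from 0 in edgeR with the group alone to 8 in edgeR and 8 in limma-voom, and to 220 in DESeq2, while DESeq2 with the group alone called 17. With the block, receptors and co-receptors had 2 calls in DESeq2, and feedback and target genes had 1 in edgeR, 1 in limma-voom and 2 in DESeq2. Spry1 was called with the block in all 3 tools, and Stat3 in these and in DESeq2 with the group alone. In limma-voom with the group alone the list medians were -0.036 for receptors and co-receptors and -0.018 for the HGF axis. The small Fgf2 change of 0.034 turned to -0.069, -0.094 and -2.29e-04 with the replicate block in edgeR, DESeq2 and limma-voom, and to -0.071 in limma-voom with the group alone. Hpn turned to 0.14 in blocked DESeq2 and 0.21 in limma-voom with the group alone, and Spint1 to 0.033 in limma-voom with the group alone. The cause was not tested. Leaving out each sample or pair gave 0 to 703 genes called (703 without pair 1 in blocked edgeR, 40 without control sample 1 in edgeR with the group alone), 0 to 1 members (Hgf without pair 1), and 0 to 1 FGF ligands, 0 to 3 receptors and co-receptors, 0 to 1 HGF axis genes and 0 to 3 feedback and target genes. List medians ranged from -0.31 to 0.26 (FGF ligands), -0.12 to 0.062 (receptors and co-receptors), -0.81 to 0.71 (HGF axis), -0.31 to -0.011 (PDGF axis), -0.12 to 0.036 (adaptors) and -0.35 to 0.16 (feedback and target genes). Log2 changes that turned sign ranged from -0.56 to 0.40 for Fgf2, -0.40 to 0.036 for Fgf10, -1.18 to 0.60 for Pdgfb, -0.33 to 0.023 for Pdgfc and -0.098 to 0.29 for Pdgfrb. Hgf ranged from -0.61 to -0.31 and kept its sign, as did Fgf7, Pdgfa, Pdgfra and Fgfr1. Among other genes the ranges were -0.36 to 0.58 for Fgf1, -0.060 to 1.02 for Fgf13, -0.75 to 0.27 for Fgf18, -2.34 to 2.71 for Hpn, -1.48 to 0.30 for Ier3, -0.18 to 0.29 for Met, -0.59 to 0.49 for Plau, -1.51 to 1.26 for Spint1 and -1.69 to 1.46 for St14. Single samples left out break a pair, and fits with 2 samples in a group assume that both groups vary alike.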
